A study of Mus musculus with 12 samples.

Results

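Pax3, Pax7, Lbx1, Met, Gab1 and Cxcr4 were followed in muscle progenitors of the head and of the trunk of the mouse embryo. The genes were taken by name, and every probe set that the platform annotation assigns to one of them was read, which gave 10 probe sets of 22690 on the array and 6 genes of 12393. Expression was measured on 12 Affymetrix arrays, with 2 arrays for each of 6 groups. The groups were head cells at E9.5, E10.5 and E11.5 and trunk cells at E9.5, E10.5 and E11.5. All groups came from ICR embryos of genotype Myf5Cre;RosaYFP, in which Cre expressed from Myf5 switches on YFP, and YFP-positive cells were sorted from the dissociated tissue. The label therefore marks cells that have expressed Myf5 and their descendants, and it stays on in cells that have since lost Myf5. The labels give no other treatment, and nothing in them tells if arrays within a group came from separate embryos, litters or pools, so p-values here measure only the spread between these samples.

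Pax3 and Pax7 are paired-box transcription factors that mark muscle progenitors of the dermomyotome, the dorsal epithelium of the somite, and Pax3 acts upstream of Myf5 and Myod1 in the trunk. Progenitors that leave the somite for the limb, diaphragm and tongue do so under Pax3, which is needed for expression of the receptor tyrosine kinase Met. Met binds hepatocyte growth factor, Gab1 is the docking protein that carries its signal, the homeodomain factor Lbx1 directs the route of the migrating cells, and the chemokine receptor Cxcr4 responds to Cxcl12. Muscles of the jaw and face form from pharyngeal mesoderm by a programme that does not require Pax3.

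A difference is given as log2 signal with its standard error, and a gene is called where its limma p-value, adjusted over 7722 tested genes, is under 0.05. The median signal of an array lay between 108.6 and 110.4 intensity units, or 6.76 to 6.79 on the log2 scale, and probe sets above it on 2 or more arrays were tested. Of the 10 probe sets, 8 passed, and all 6 genes kept at least 1. Arrays of the dimmer group under the median were raised to it, and then the fold is given as at least that size. No level is set against that of another gene, since probe sets differ in brightness for equal amounts of RNA.

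The sorted cells held other transcripts besides those of muscle. Summed over 8 muscle genes other than Pax3 and Pax7 (Myf5, Myod1, Myog, Myf6, Msc, Tcf21, Des and Chrna1), signal spanned 1968 to 10057 units on head arrays and 1315 to 4495 on trunk arrays, and of these genes Myf6 was below the median on all 12 arrays. Endothelial markers summed to 2407 to 6972 units on head arrays, against 886 to 1810 on trunk arrays, and 11 of 11 tested were called higher in head over the mean of the 3 stages. Neuronal markers summed to 6155 to 15600 units in head and 924 to 8542 in trunk, with 12 of 12 called higher in head, and 10 of 12 epithelial markers were higher in head as well. These calls are over the mean of the 3 stages, where 10.5% of all tested genes were called. Since these are bulk samples, fewer cells of a type and less RNA per cell cannot be told apart. The first replicates of head and trunk at E10.5 also stood apart in Xist, the RNA that coats the inactive X chromosome, at 7.35 and 6.37 (log2 signal), against 11.89 to 13.10 on the other 10 arrays. Where leaving out that pair ended a call of the 6 genes, the value without it is given as well.

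**Figure D1:**
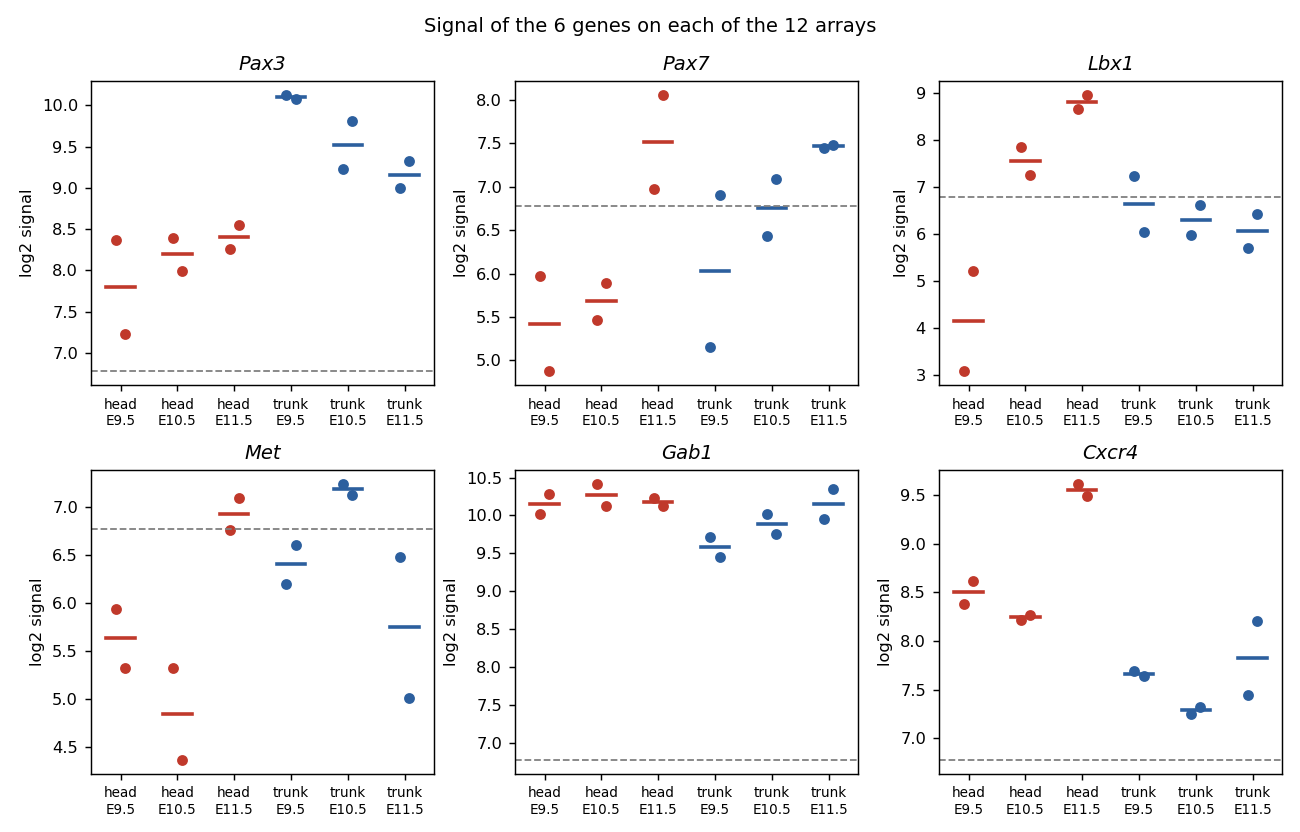
Log2 signal (vertical axes, each with its own range) of the representative probe set of each of the 6 genes, by group (horizontal axes). Points are single arrays, bars the mean of 2, and the dashed line the array median. Pax3 is higher in every trunk array than in any head array, whereas Lbx1 is highest in head at E11.5.

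Pax3 was lower in head than in trunk. On probe set 1420389_at (gene at chr1:78101267-78197136, GRCm38.p6), log2 signal was 8.37 and 7.23 in head arrays at E9.5, against 10.13 and 10.08 in trunk arrays. At E10.5 it was 8.39 and 7.997 in head and 9.23 and 9.81 in trunk. At E11.5 the head arrays gave 8.26 and 8.55, against 8.9999 and 9.32 in the trunk. The highest head array stayed below the lowest trunk array over the whole series, and all 12 arrays lay above the median. Over the mean of the 3 stages the difference was −1.46 ± 0.19 (95% interval −1.88 to −1.04, adjusted p = 0.000409), a 2.76-fold lower signal in head. In that comparison 2 of the 6 genes were called, Pax3 and Cxcr4, where 10.5% of all tested genes were.

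By stage, the difference was called at E9.5 and E10.5. Pax3 was 4.93-fold lower in head at E9.5 (−2.30 ± 0.33, adjusted p = 0.00153), and 2 of the 6 genes were called there against 5.92% of all genes. At E10.5 it was 2.51-fold lower (−1.33 ± 0.33, adjusted p = 0.0434), one of 3 genes called against 4.52% of all. That call did not hold without the E10.5 pair low in Xist (−1.82, adjusted p = 0.232), nor without any 1 of 8 single arrays, namely the 4 at E10.5 and the trunk arrays at E9.5 and E11.5 (−1.62 to −1.04, adjusted p 0.0508 to 0.272). At E11.5 the difference was −0.75 ± 0.33 and missed the threshold (95% interval −1.48 to −0.03, adjusted p = 0.399). Mean signal in the trunk was 10.10, 9.52 and 9.16 at E9.5, E10.5 and E11.5, and in the head 7.80, 8.19 and 8.41. Neither change between E9.5 and E11.5 was called, at −0.94 ± 0.33 in trunk (adjusted p = 0.0865) and 0.60 ± 0.33 in head (adjusted p = 0.388). The difference between these changes, 1.55 ± 0.47, was not called either (95% interval 0.52 to 2.57, adjusted p = 0.155). Single arrays moved these calls. The trunk change passed without the first or the second head array of E9.5 (−0.94 each, adjusted p = 0.0259 each), and the difference between the changes passed without the first (2.12, adjusted p = 0.0256). In the order of the 6 group means, trunk at E9.5 was highest and head at E9.5 lowest, and no neighbours in that order differed past the threshold.

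A second Pax3 probe set, 1430335_a_at, was dimmer and above the median on 4 of 12 arrays. It gave 5.43 and 5.27 in head at E9.5 against 7.70 and 7.83 in trunk, 6.52 and 5.55 against 6.81 and 7.20 at E10.5, and 4.68 and 4.98 against 6.10 and 6.45 at E11.5. Again no head array reached any trunk array of its stage. Its region difference over the 3 stages was −1.61 ± 0.24 (adjusted p = 0.00158 over probe sets). It also called the fall in trunk to E11.5 from E9.5, at −1.49 ± 0.42 (adjusted p = 0.0408), which the brighter probe set did not. In the head from E10.5 to E11.5 the probe sets had opposite signs, −1.21 ± 0.42 here and 0.21 ± 0.33 on the brighter one, and neither was called.

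Genes that act with Pax3 in the dermomyotome were described from a list of 23, of which 14 were tested. Over the mean of the 3 stages 8 of the 14 were lower in head and 0 higher, against 10.5% of all genes called, with a median difference of −1.51 against 0.00 for all genes. At E9.5 alone 7 were lower in head and 2 higher, against 5.92% of all genes called. Averaged over the 3 stages, Meox2, a homeobox gene of somites and limb muscle, was 4.22-fold lower in head (−2.08 ± 0.13, adjusted p = 9.07e-07). Over the same mean Sim1, a bHLH-PAS factor of the lateral dermomyotome, was at least 5.36-fold lower (−3.52 ± 0.22). Meox1, the partner homeobox gene of Meox2 in somites, was at least 7.30-fold lower over that mean (−2.97 ± 0.19). For Tcf15, the bHLH factor paraxis that keeps somites epithelial, it was at least 6.43-fold (−3.29 ± 0.24). Some of these transcripts changed with time. From E9.5 to E11.5, 3 of the 14 rose and 1 fell in head, against 4.78% of all genes called, with a median of −0.44. In trunk 2 rose and 3 fell, against 13.4% of all genes called, with a median of −0.49. In head between E9.5 and E11.5, Meox2 rose 3.20-fold (1.68 ± 0.22, adjusted p = 0.000971) and Meox1 at least 2.09-fold (1.38 ± 0.33, adjusted p = 0.0321), whereas in trunk Meox1 fell 3.89-fold (−1.96 ± 0.33, adjusted p = 0.00224). For the head change minus the trunk change 3 of the 14 were called higher and 2 lower, against 1.48% of all genes called. The higher ones were Meox1 (3.34 ± 0.46, adjusted p = 0.00415), Meox2 (2.24 ± 0.31, adjusted p = 0.00391) and Dmrt2, a doublesex-related factor of the dermomyotome (4.98 ± 0.81, adjusted p = 0.00934). The Dmrt2 means in head, 1.72 at E9.5, 4.39 at E10.5 and 5.32 at E11.5, all lay below the array median, so the size of its difference was not measured reliably. Dach2, a Dachshund-family cofactor in the network with Eya proteins, went the other way, with a head change minus trunk change of −2.28 ± 0.30 (adjusted p = 0.00293).

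Over the 12 arrays the genes whose log2 signal was most like that of Pax3 were Meox1 (Pearson r = 0.97), Dmrt2 (0.93) and Hoxb6 (0.92), among 1965 genes whose group means span at least 1 on the log2 scale. The arrays share 6 groups, so these values describe the groups more than single arrays. Neural tube and neural crest cells also express Pax3 and Pax7. Neural tube markers summed to 1412 to 4954 units in head and 2884 to 4134 in trunk, with 1 of 5 tested called higher and 3 lower in head over the mean of the 3 stages, and 9 of the 14 on the array, Sox1, Sox3 and Olig2 among them, were below the median on all 12 arrays. Neural crest markers summed to 4332 to 6207 units in head and 4134 to 6789 in trunk, with 1 of 10 called higher and 2 lower. Over that mean of the 3 stages 10.5% of all genes were called. The part of neural tube and neural crest cells in the Pax3 difference was not tested.

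**Figure D2:**
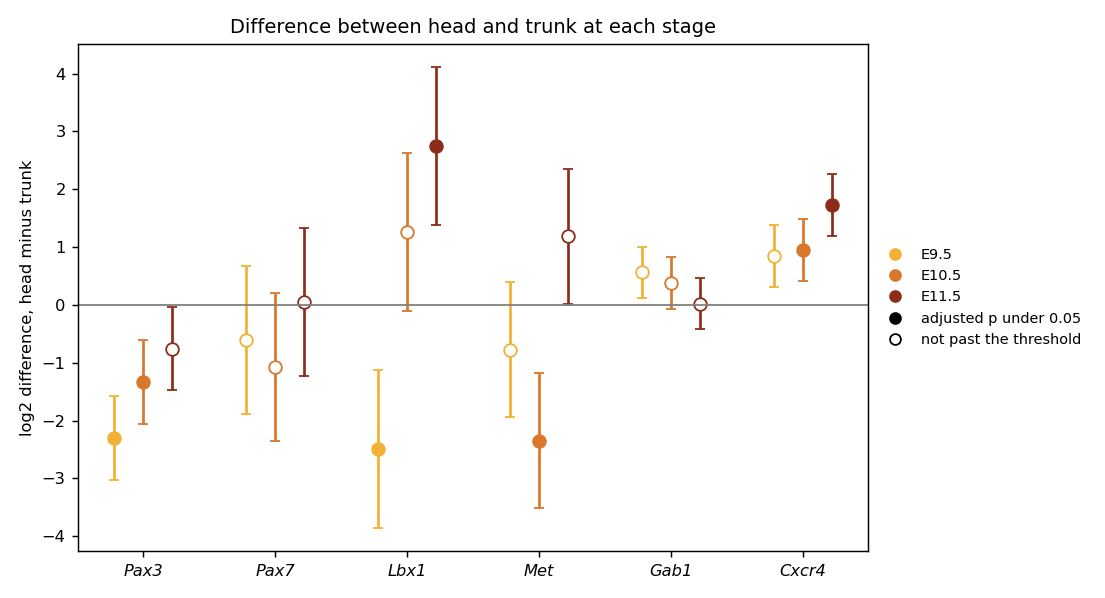
Head minus trunk difference in log2 signal (vertical axis) of each of the 6 genes at E9.5, E10.5 and E11.5, with 95% intervals from limma on 2 arrays per group. Filled points passed an adjusted p of 0.05. Pax3 lies below 0 at all 3 stages and Cxcr4 above 0, and Lbx1 lies at −2.49 at E9.5 and at 2.75 at E11.5.

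Pax7 was called in none of the 13 comparisons. On its single probe set, 1452510_at (gene at chr4:139737059-139833530), log2 signal was 5.97 and 4.88 in head at E9.5, 5.46 and 5.90 at E10.5, and 6.97 and 8.06 at E11.5. In trunk it was 5.16 and 6.91 at E9.5, 6.43 and 7.08 at E10.5, and 7.45 and 7.48 at E11.5. The 4 arrays of E11.5 all lay above the median, as did only 1 trunk array at E9.5 and 1 at E10.5, and in head no array of E9.5 or E10.5 reached those of E11.5. From E9.5 to E11.5 the difference was 2.09 ± 0.59 in head (95% interval 0.81 to 3.38, adjusted p = 0.0665), and 1.43 ± 0.59 in trunk (0.15 to 2.72, adjusted p = 0.141). With 50 units added before log2 was taken, which shrinks differences among dim signals and their spread, the head value was 1.32 ± 0.35 and passed the threshold (adjusted p = 0.0487). The head value also passed without the first or without the second trunk array of E9.5 (2.09 each, adjusted p = 0.0304 and 0.0342), and the trunk value passed without the second trunk array of E9.5 (2.31, adjusted p = 0.0353).

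At E11.5 the head and trunk means of Pax7 were 7.51 and 7.46, a difference of 0.05 with a 95% interval of −1.23 to 1.33. Over the mean of the 3 stages head minus trunk was −0.55 ± 0.34 (−1.29 to 0.20, adjusted p = 0.362), and neither −0.61 at E9.5 nor −1.08 at E10.5 was called. The 4 group means at E9.5 and E10.5 lay at or below the median, so their order carries little weight. Most like Pax7 over the 12 arrays were Cbx3 (r = 0.91), Col26a1 (0.90) and Smarce1 (0.90). Every group mean of Cbx3 lay below the array median, from 5.61 to 6.75, so its likeness rests on dim signals.

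Lbx1 rose in head, and its change differed between head and trunk. Log2 signal on 1427400_at (gene at chr19:45232684-45236841) was 3.07 and 5.20 in head at E9.5, 7.84 and 7.26 at E10.5, and 8.66 and 8.95 at E11.5. In trunk it was 7.22 and 6.04 at E9.5, 5.98 and 6.60 at E10.5, and 5.69 and 6.42 at E11.5. The 4 head arrays of E10.5 and E11.5 stood above every trunk array, and both head arrays of E9.5 stood below every one. Only 5 arrays were above the median, those 4 and the first trunk array of E9.5.

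Mean Lbx1 signal in head was 8.81 at E11.5 against 4.14 at E9.5, a difference of 4.67 ± 0.62 and at least 4.07-fold (adjusted p = 0.00133). In that comparison 2 of the 6 genes were called, both higher, against 4.78% of all genes called. The first interval, E9.5 to E10.5, gave 3.41 ± 0.62 in head (at least 1.70-fold, adjusted p = 0.0292), where Lbx1 was the 1 gene of the 6 called and 0.958% of all genes were. That call was lost without the E10.5 pair low in Xist (3.12, adjusted p = 0.324). It was also lost without the first head array of E9.5 or of E10.5, or either trunk array of E10.5 (2.35 to 3.41, adjusted p 0.0525 to 0.211). From E10.5 to E11.5 the difference was 1.26 ± 0.62 and not called (adjusted p = 0.335). The trunk change between E9.5 and E11.5 was −0.58 ± 0.62 (95% interval −1.94 to 0.79, adjusted p = 0.623). The head change minus the trunk change was 5.24 ± 0.88 (3.32 to 7.17, adjusted p = 0.0120), the 1 call among the 6 genes where 1.48% of all genes were called. Both head arrays of E9.5 lay far below the median, and with 50 units added before log2 the head change was 2.80 (adjusted p = 0.000245) and the difference between head and trunk 3.18 (adjusted p = 0.00274). For the change from E9.5 to E10.5, where 0.389% of all genes were called, the corresponding difference was 3.75 ± 0.88 and not called (adjusted p = 0.132), although it passed without the second head array of E9.5 (4.81, adjusted p = 0.0232). The difference over the whole interval missed the threshold without the second head array of E11.5 (5.09, adjusted p = 0.0556) and without the first trunk array of E9.5 (4.65, adjusted p = 0.0581).

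The region difference of Lbx1 thus had opposite signs at the ends of the series. At E9.5 head was lower by 2.49 ± 0.62 on the log2 scale (adjusted p = 0.0350), with 3 of the 4 arrays below the median, so no fold is given. At E11.5 head was higher by 2.75 ± 0.62, at least 4.08-fold (adjusted p = 0.0461), and 2 of the 6 genes were called against 2.07% of all genes. Both calls were close to the threshold. The E9.5 call was lost without 8 of the 12 arrays, namely the first head and first trunk array of E9.5, all 4 of E10.5 and both head arrays of E11.5 (−2.49 to −1.43, adjusted p 0.0506 to 0.284), and the E11.5 call without the 4 arrays of E10.5 and the 4 of E11.5, each in turn (2.39 to 3.11, adjusted p 0.0620 to 0.266). Without the pair low in Xist the adjusted p was 0.0807 at E9.5 and 0.104 at E11.5, with the differences as before. At E10.5 the difference was 1.26 ± 0.62 and not called (adjusted p = 0.245), and without the pair low in Xist it was 0.66 (adjusted p = 0.891). The mean over stages was 0.50 ± 0.36 (adjusted p = 0.431), and 0.62 with 50 units added before log2 (adjusted p = 0.0408).

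The second Lbx1 probe set, 1422323_a_at, lay below the median on all 12 arrays and was not tested as part of the 7722 genes. It gave 4.69 and 4.09 in head at E9.5, 3.96 and 5.37 at E10.5, and 6.60 and 6.76 at E11.5. In trunk it gave 5.24 and 5.08, then 4.64 and 6.06, then 5.70 and 5.59. Its head arrays at E11.5 were above all its others, but from E9.5 to E11.5 in head it differed by 2.29 ± 0.59 without passing the threshold over all probe sets (adjusted p = 0.0778). At E10.5 its region difference was −0.69 ± 0.59, of opposite sign to that of the brighter probe set, and neither was called. Its head change from E9.5 to E10.5 was 0.28 ± 0.59, against 3.41 on the brighter one, and its head change minus trunk change from E9.5 to E11.5 was 1.80 ± 0.83 (adjusted p = 0.609). Most like Lbx1 on the brighter probe set were Art1 (r = 0.91), Tppp3 (0.89) and Myf5 (0.86).

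**Figure D3:**
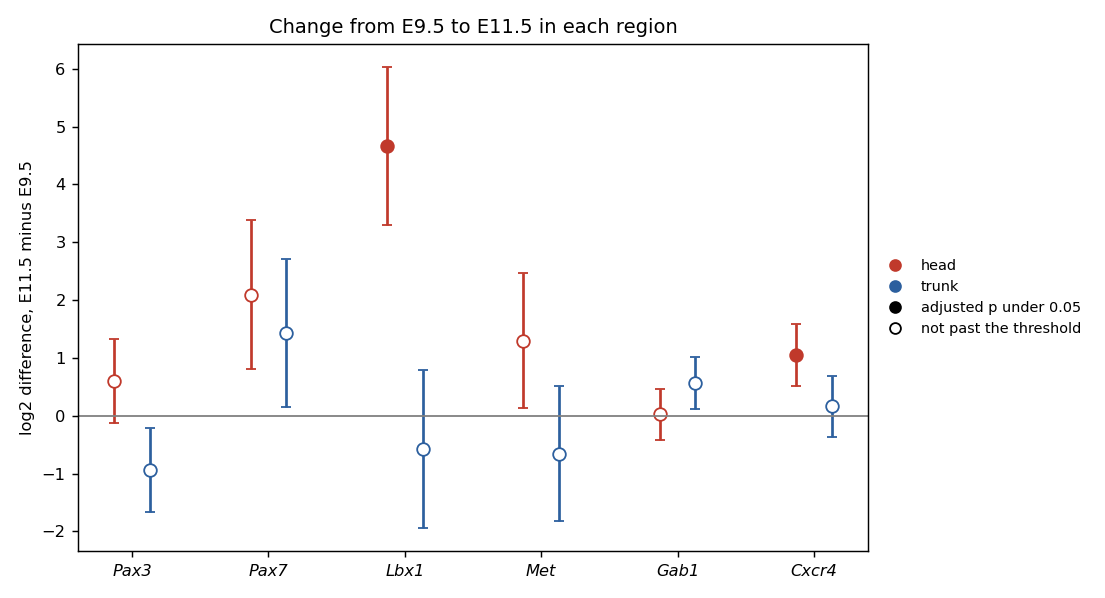
Change in log2 signal between E9.5 and E11.5 (vertical axis) of the 6 genes in head and in trunk, with 95% intervals from limma on 2 arrays per group. Filled points passed an adjusted p of 0.05, which in head were Lbx1 and Cxcr4 and in trunk none of the 6 genes.

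In trunk 0 of the 6 genes was called with limma in any of the 3 stage comparisons, against 7.2% of all genes from E9.5 to E10.5, 0.0259% from E10.5 to E11.5 and 13.4% from E9.5 to E11.5. At an unadjusted p under 0.05 none of the 6 would have been listed from E9.5 to E10.5, while Pax3 (−0.94), Pax7 (1.43) and Gab1 (0.57) would have been listed from E9.5 to E11.5 and Met (−1.44) and Cxcr4 (0.54) from E10.5 to E11.5. Other genes of migrating muscle and of the limb were described from a list of which 13 besides Lbx1 were tested. The list holds limb mesenchyme genes as well as muscle genes. In head 4 of the 13 rose and 0 fell between E9.5 and E11.5, where 4.78% of all genes were called, and in trunk 2 rose and 0 fell, where 13.4% were. Among those in head were Ncam1, a neural cell adhesion molecule also used by muscle precursors (3.26-fold, 1.70 ± 0.18, adjusted p = 0.000375), Cdh15, the muscle cadherin (at least 4.17-fold, 2.60 ± 0.30, adjusted p = 0.000484), and Meox2. In trunk they were Prrx1, a homeobox gene of limb and facial mesenchyme (6.32-fold, 2.66 ± 0.27, adjusted p = 0.000106), and Tbx3, a T-box gene of the limb bud (at least 3.61-fold, 1.94 ± 0.34, adjusted p = 0.00303). Over the mean of the 3 stages 3 of the 13 were lower in head and 0 higher, where 10.5% of all genes were called. The lower ones were Meox2, Ncam1 (1.89-fold, −0.92 ± 0.10, adjusted p = 0.000155) and the guidance receptor gene Epha7 (2.38-fold, −1.25 ± 0.21, adjusted p = 0.00213).

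For the receptor genes Met and Cxcr4, which differed between head and trunk at single stages, the sequence around a transcript start is shown, 250 bases before it and 50 after, from RefSeq (GRCm38.p6). The Met window lies wholly inside the span given for the gene, downstream of its first base, so it belongs to a start within the gene and not to the outermost one. Capitals mark every match to CANNTG, the E-box bound by bHLH factors such as Myf5, or to TATAAA, the TATA box, on either strand. Of the 6 genes, 4 were in the promoter table, Pax7, Met, Gab1 and Cxcr4.
Met, chr6:17463707-17464006, plus strand: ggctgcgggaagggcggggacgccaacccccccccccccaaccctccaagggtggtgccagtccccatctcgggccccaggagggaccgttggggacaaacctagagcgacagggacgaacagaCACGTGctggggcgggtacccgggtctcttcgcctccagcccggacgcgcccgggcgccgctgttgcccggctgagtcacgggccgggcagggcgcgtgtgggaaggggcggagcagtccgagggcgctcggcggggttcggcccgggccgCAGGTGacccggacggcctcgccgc
Cxcr4, chr1:128592250-128592549, minus strand: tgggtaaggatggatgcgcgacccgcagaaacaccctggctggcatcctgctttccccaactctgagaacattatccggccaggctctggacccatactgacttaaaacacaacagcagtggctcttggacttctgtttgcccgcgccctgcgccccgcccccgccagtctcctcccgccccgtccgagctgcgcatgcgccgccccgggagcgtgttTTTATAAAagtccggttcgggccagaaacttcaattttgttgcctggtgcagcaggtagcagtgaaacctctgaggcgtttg
The Met window held 2 E-boxes and no TATA box. The Cxcr4 window held no E-box and 2 overlapping TATAAA matches, 1 on each strand. Of 32851 mouse promoter windows of 300 bases, 72.3% held at least 1 E-box and 13.6% at least 1 TATAAA. The windows of Pax7 and Gab1 held neither motif. A match is a run of letters and not a measured binding site.

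Met was lower in head than in trunk at E10.5. Its probe set, 1422990_at (gene at chr6:17463349-17573980), gave log2 signals of 5.94 and 5.32 in head at E9.5, against 6.20 and 6.61 in trunk. At E10.5 it gave 5.32 and 4.36 in head and 7.25 and 7.13 in trunk. At E11.5 the head arrays read 6.76 and 7.10, and the trunk arrays 6.48 and 5.01. Only 3 of the 12 arrays lay above the median, both trunk arrays of E10.5 and 1 head array of E11.5, so this gene was measured near the lower end of the usable range. Head was below trunk on both arrays at E9.5 and E10.5 and above it on both at E11.5.

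At E10.5 the Met difference was −2.35 ± 0.53, at least 1.33-fold lower in head (adjusted p = 0.0320). The call was lost without any 1 of the 4 arrays of that stage (−2.83 to −1.87, adjusted p 0.0586 to 0.191) and without the pair low in Xist (−2.77, adjusted p = 0.301). The values at E9.5, −0.77 ± 0.53, and at E11.5, 1.18 ± 0.53, were not called (95% intervals −1.94 to 0.39 and 0.02 to 2.35). With 1 array left out they ranged from −1.08 to −0.47 at E9.5 and from 0.45 to 1.92 at E11.5. From E10.5 to E11.5 the head change was 2.09 ± 0.53 (adjusted p = 0.0866) and the trunk change −1.44 ± 0.53 (adjusted p = 0.532). The head change minus the trunk change was 3.53 ± 0.75 with an unadjusted p of 0.000544, but after adjustment it was 0.407, and limma called 0 of 7722 genes for that difference. Among the 15 pairs of groups the region difference at E10.5 was the 1 pair called. Most like Met were Trpc2 (r = 0.84), Net1 (0.83) and Ddx20 (0.80).

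Hgf, which encodes the ligand of Met, lay below the median on all 12 arrays, between 3.70 and 6.03 in head and between 4.004 and 5.41 in trunk, and was not tested. Of 21 other tested genes of HGF and Met signalling, 2 were called higher in head over the mean of the 3 stages and 0 lower, a share close to the 10.5% of all genes called there, with a median difference of 0.15. The 2 genes were Spint2, an inhibitor of the proteases that activate HGF (2.32-fold, 1.22 ± 0.16, adjusted p = 0.000494), and Stat3, a transcription factor activated downstream of Met (1.72-fold, 0.78 ± 0.21, adjusted p = 0.0344). Between E9.5 and E11.5 Spint2 fell 3.10-fold in head (−1.63 ± 0.28, adjusted p = 0.00657), and Cd44, a co-receptor for Met, rose 2.09-fold in trunk (1.06 ± 0.32, adjusted p = 0.0458). Spint2 is also one of the 12 epithelial markers, whose summed signal in head was 8381 to 9142 units at E9.5, 3735 to 4759 at E10.5 and 2402 to 2452 at E11.5, against 2976 to 3359, 1303 to 2103 and 1179 to 1753 in trunk. The part of epithelial cells in the Spint2 values was not tested.

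Gab1 was above the median in all groups and differed little between them. On 1417693_a_at (gene at chr8:80764431-80880519) log2 signal was 10.02 and 10.28 in head at E9.5, 10.42 and 10.13 at E10.5, and 10.23 and 10.12 at E11.5. In trunk it was 9.72 and 9.45 at E9.5, 10.02 and 9.76 at E10.5, and 9.96 and 10.35 at E11.5. Head arrays lay above trunk arrays at E9.5 and E10.5 and overlapped with them at E11.5. The region difference over the 3 stages was 0.32 ± 0.12 (95% interval 0.07 to 0.58, adjusted p = 0.115), and none of the 13 comparisons was called. Of the 15 pairs of groups 1 was called, head at E10.5 over trunk at E9.5, at 0.69 ± 0.20 and 1.61-fold (adjusted p = 0.0403, where 15.5% of all genes were called). The trunk change between E9.5 and E11.5 was 0.57 ± 0.20 (adjusted p = 0.0917).

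A second bright Gab1 probe set, 1417694_at, gave 0.61 ± 0.18 for that trunk change (adjusted p = 0.0589 over probe sets), and 0.56 ± 0.18 for the region difference at E9.5 (adjusted p = 0.138). With both probe sets averaged the trunk rise passed the threshold (0.59 ± 0.17, adjusted p = 0.0423). At E10.5 the second probe set gave −0.08 ± 0.18 for head minus trunk, against 0.38 ± 0.20 on the first, so the sign there depended on the probe set. The third, 1448814_at, lay below the median on all 12 arrays, between 3.55 and 5.97. Most like Gab1 over the 12 arrays were Cadps2 (r = 0.95), Mxd4 (0.94) and Stx1a (0.94).

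Cxcr4 was higher in head than in trunk and rose in head between E10.5 and E11.5. On 1448710_at (gene at chr1:128588199-128592299) log2 signal was 8.38 and 8.62 in head at E9.5, against 7.69 and 7.64 in trunk. At E10.5 it was 8.22 and 8.27 in head and 7.25 and 7.32 in trunk. At E11.5 it was 9.62 and 9.49 in head, against 7.45 and 8.20 in trunk. Every head array lay above every trunk array, and all 12 were above the median. Over the mean of the 3 stages head exceeded trunk by 1.17 ± 0.14 (95% interval 0.86 to 1.48, adjusted p = 0.000237), or 2.26-fold. At E11.5 the difference was 1.73 ± 0.25 and 3.31-fold (adjusted p = 0.00394).

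At E9.5 the Cxcr4 difference was 0.84 ± 0.25 (1.79-fold, adjusted p = 0.0752), which missed the threshold but passed without either trunk array of E11.5 (0.84 each, adjusted p = 0.0325 and 0.0335). At E10.5 it was 0.96 ± 0.25 and 1.94-fold (adjusted p = 0.0479), a call lost without any 1 of 10 arrays, all but the trunk arrays of E11.5 (0.92 to 0.99, adjusted p 0.0540 to 0.235), and without the pair low in Xist (0.95, adjusted p = 0.532). Within head, mean signal was 9.55 at E11.5 against 8.24 at E10.5, a rise of 1.31 ± 0.25 or 2.48-fold (adjusted p = 0.0358), the 1 call among the 6 genes where 0.984% of all genes were called. Against E9.5 the rise was 1.05 ± 0.25 or 2.07-fold (adjusted p = 0.0293). The first of these was lost without any 1 array of E10.5 or any 1 head array of E11.5 (1.24 to 1.37, adjusted p 0.0538 to 0.201), and the second without any 1 head array of E9.5 or E11.5 or the first trunk array of E10.5 (0.93 to 1.17, adjusted p 0.0502 to 0.165). Without the pair low in Xist both missed the threshold (1.28, adjusted p = 0.335, and 1.05, adjusted p = 0.0675). The trunk change between E9.5 and E11.5 was 0.16 ± 0.25 (−0.37 to 0.69), and the head change minus the trunk change was 0.89 ± 0.35 and not called (95% interval 0.13 to 1.65, adjusted p = 0.302). In the order of groups, head at E11.5 over head at E9.5 was the 1 pair of neighbours that differed past the threshold. Most like Cxcr4 were Rasd2 (r = 0.92), Efs (0.91) and Ppp1r14b (0.90). The group means of Rasd2 lay below the array median except in head at E11.5 (8.03).

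Cxcl12, the ligand of Cxcr4, differed between head and trunk in the opposite direction. In head its mean signal was lower at E11.5 than at E10.5, where Cxcr4 rose, but that Cxcl12 change was not called. From E9.5 to E10.5 the mean signal of both genes went down in head and in trunk. None of these changes was called, and those of Cxcr4 were −0.26 and −0.38. Log2 signal of Cxcl12 in head was 10.97 and 10.90 at E9.5, 10.43 and 10.02 at E10.5, and 9.67 and 9.51 at E11.5. In trunk it was 11.21 and 11.19 at E9.5, 11.04 and 10.82 at E10.5, and 10.67 and 10.98 at E11.5. Head arrays lay below trunk arrays at each stage, but the difference was not called at E9.5 or at E10.5. Over the mean of the 3 stages Cxcl12 was 1.66-fold lower in head (−0.73 ± 0.10, adjusted p = 0.000705), and at E11.5 2.35-fold lower (−1.23 ± 0.18, adjusted p = 0.00437). From E9.5 to E11.5 it fell 2.54-fold in head (−1.34 ± 0.18, adjusted p = 0.00137), while the trunk change was −0.37 ± 0.18 (adjusted p = 0.214) and the difference between the changes was not called (−0.97 ± 0.26, adjusted p = 0.103). Ackr3, the scavenging receptor for Cxcl12, rose over the same time in both, 3.01-fold in head (1.59 ± 0.34, adjusted p = 0.0194) and 3.15-fold in trunk (1.66 ± 0.34, adjusted p = 0.00796).

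Of 14 tested genes of the CXCL12 axis besides Cxcr4, 2 were higher and 1 lower in head over the mean of the 3 stages, where 10.5% of all genes were called. From E9.5 to E11.5, 2 rose and 1 fell in head, where 4.78% of all genes were called, and 6 rose and 0 fell in trunk, where 13.4% were. The regulator of G protein signalling Rgs16 rose in head (4.24-fold, 2.08 ± 0.27, adjusted p = 0.000971) and in trunk (2.35-fold, 1.23 ± 0.27, adjusted p = 0.0102). Rgs4, of the same family, was at least 1.59-fold higher in head over the 3 stages (1.56 ± 0.22, adjusted p = 0.000616), and Pxn, which encodes the focal adhesion protein paxillin, 1.46-fold (0.54 ± 0.13, adjusted p = 0.0217). The list had a median of 0.16 for the region difference, against 0.00 for all genes.

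Endothelial cells also express Cxcr4. The 13 endothelial markers summed to 3097 to 5160 units in head at E9.5, 6776 to 6972 at E10.5 and 2407 to 3720 at E11.5, against 886 to 916, 1587 to 1810 and 924 to 1417 in trunk. Erg and Pecam1 were below the median on all 12 arrays. The sums were higher in head at each stage, and within head they were highest at E10.5. Of 11 tested markers 0 were called higher and 1 lower in head from E10.5 to E11.5, where 0.984% of all genes were called. Leukocytes carry Cxcr4 as well. Their markers summed to 991 to 1080 units in head at E9.5, 1760 to 3262 at E10.5 and 1819 to 2315 at E11.5. In trunk the sums were 546 to 626, 740 to 787 and 923 to 1042. Of 5 tested, 4 were called higher in head over the 3 stages, where 10.5% of all genes were called. Within head 1 was called higher from E9.5 to E11.5 (4.78% of all genes) and 0 from E10.5 to E11.5 (0.984%). Of the 11 on the array 6, Ptprc and Cd68 among them, were below the median throughout. The part of these cells in the region difference of Cxcr4 and in its rise in head was not tested.

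**Figure D4:**
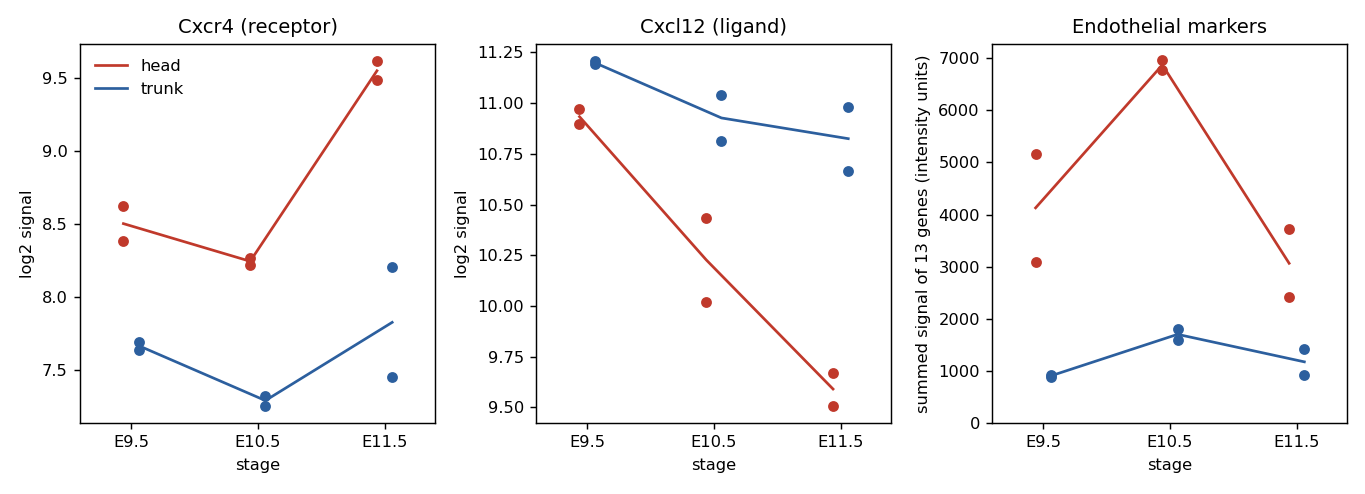
Log2 signal of Cxcr4 and of Cxcl12, and the summed signal of 13 endothelial marker genes in intensity units, by stage in head and trunk. Points are single arrays and lines join the means of 2. In head, Cxcr4 is highest at E11.5, Cxcl12 lowest at E11.5, and the endothelial sum highest at E10.5.

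Genes reported as targets of Pax3 or Pax7 in muscle cells made up a second list. Besides Lbx1, Met and Cxcr4, 13 genes of that list were tested, and over the mean of the 3 stages 1 was called higher in head and 2 lower, against 10.5% of all genes called, with a median of −0.10. The lower ones were Dmrt2 (at least 2.91-fold, −4.51 ± 0.33, adjusted p = 4.49e-06) and Foxc2, a forkhead gene of paraxial mesoderm (3.61-fold, −1.85 ± 0.20, adjusted p = 8.75e-05), and the higher one was Sostdc1, a secreted inhibitor of BMP and Wnt signals (1.88-fold, 0.91 ± 0.23, adjusted p = 0.0266). In head 7 of the 13 rose and 0 fell between E9.5 and E11.5, with a median of 1.48, against 4.78% of all genes called. In trunk 5 rose and 1 fell, with a median of 0.32, against 13.4% of all genes called. The lists overlap. Myf5 and Myod1 are also among the myogenic regulatory factors below, and Dmrt2, Foxc2 and Eya1 among the genes that act with Pax3. Fgfr4, a fibroblast growth factor receptor of muscle progenitors, rose at least 6.08-fold in head (3.69 ± 0.41, adjusted p = 0.000419). Itm2a, a membrane protein of early muscle, rose 4.12-fold in head (2.04 ± 0.15, adjusted p = 1.8e-05) and 3.23-fold in trunk (1.69 ± 0.15, adjusted p = 3.65e-05). Tgfb2, a TGF-beta ligand, rose 3.41-fold in head (1.77 ± 0.20, adjusted p = 0.000419) and 6.08-fold in trunk (2.60 ± 0.20, adjusted p = 1.2e-05).

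Of the myogenic regulatory factors 8 were tested, and 4 rose in head and 4 in trunk from E9.5 to E11.5, with 0 falling, against 4.78% of all genes called in head and 13.4% in trunk. Myod1, a determination factor, rose at least 20.4-fold in head (4.92 ± 0.30, adjusted p = 6.9e-06) and at least 9.39-fold in trunk (3.84 ± 0.30, adjusted p = 1.34e-05). Myog, needed for differentiation, rose at least 13.1-fold in head (5.50 ± 0.36) and 5.84-fold in trunk (2.55 ± 0.36), and its changes differed between the regions (2.95 ± 0.51, adjusted p = 0.0133). Myf5, which drives the label, gave 9.04 and 9.59 in head at E9.5, 11.16 and 11.05 at E10.5, and 10.80 and 10.79 at E11.5. In trunk it gave 9.96 and 10.35, 10.13 and 10.17, and 10.07 and 10.30 at these stages. Thus Myf5, like Lbx1, was lower in head at E9.5 (1.80-fold, −0.84 ± 0.21, adjusted p = 0.0308) and rose there to E11.5 (2.80-fold, 1.48 ± 0.21, adjusted p = 0.00165). Its head change minus its trunk change was 1.45 ± 0.29 (adjusted p = 0.0307).

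**Figure D5:**
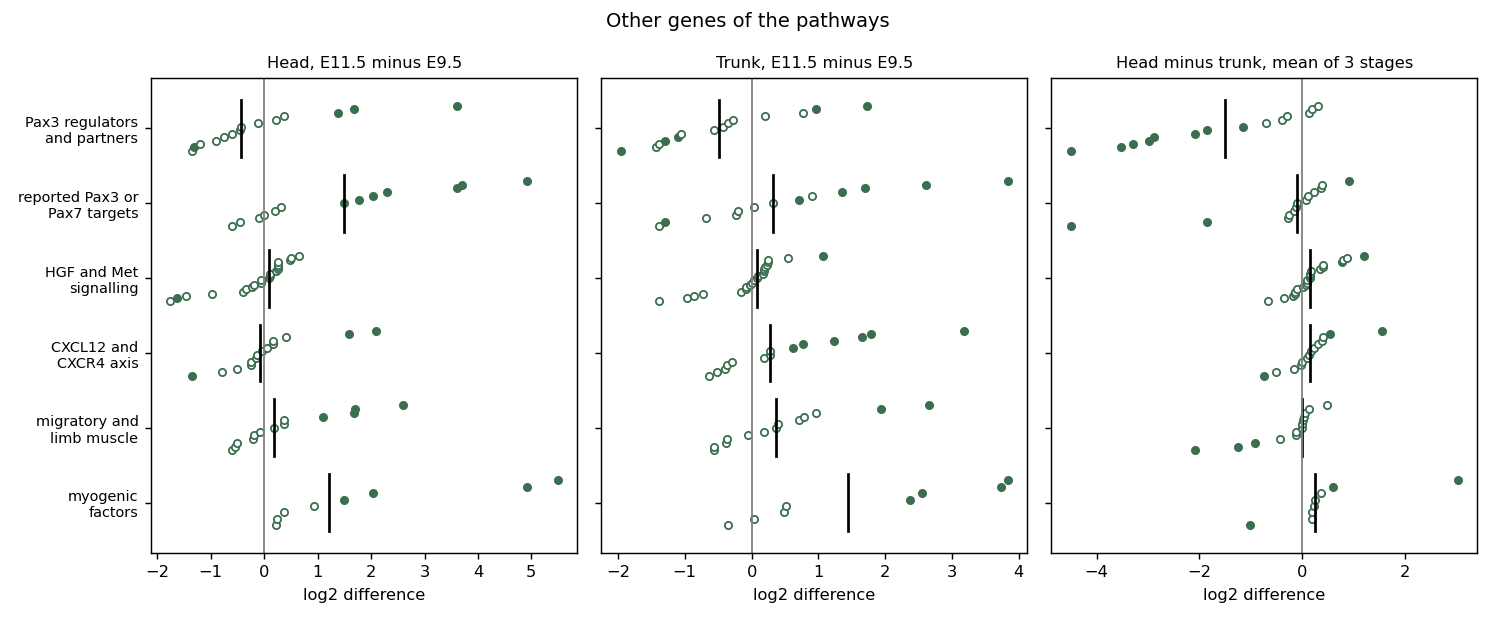
Differences in log2 signal (horizontal axes) of the other tested genes of 6 lists, with the members Pax3, Pax7, Lbx1, Met, Gab1 and Cxcr4 left out, for the change between E9.5 and E11.5 in head and in trunk and for head minus trunk over the 3 stages. Each point is a gene, filled where its adjusted p was under 0.05, and bars are list medians. Genes acting with Pax3 lie mostly below 0 for head minus trunk, with a median of −1.51, while reported Pax3 or Pax7 targets have a median of 1.48 for the change in head.

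Across all 15 pairs of the 6 groups, in which between 0.0259% and 15.5% of all genes were called, Cxcr4 was called in 7, Pax3 and Lbx1 in 6 each, Met and Gab1 in 1 each and Pax7 in 0. Among pairs that set a head stage against a different trunk stage, head at E9.5 had calls for 2 of the 6 genes against trunk at E10.5 (4.64% of all genes) and for 1 against trunk at E11.5 (7.69%). Head at E10.5 had 2 against trunk at E9.5 (15.5%) and 0 against trunk at E11.5 (4.36%), where at an unadjusted p under 0.05 limma would have listed Pax3 (−0.97), Pax7 (−1.79) and Lbx1 (1.49). Head at E11.5 had 3 against trunk at E9.5 (13.8%) and 2 against trunk at E10.5 (4.01%). All 6 pairs called for Pax3 set a head group against a trunk group, whereas those called for Lbx1 and Cxcr4 also included pairs of stages within the head. The 6 genes did not follow one profile over the 12 arrays. Gab1 and Cxcr4 correlated negatively with Pax3 (r = −0.74 and −0.62), Pax7 and Lbx1 little with it (0.31 and 0.04), and the highest of the 15 correlations was that of Cxcr4 with Gab1 (0.53). The 12 arrays share 6 groups, so these values are a description.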

How the data were processed

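RNA of sorted YFP-positive cells was extracted with QIAzol, amplified and labelled with biotin, per the labels' protocols. The authors deposited probe set signals as intensity on a linear scale. MAS5 and Affymetrix Expression Console are named in the submitters' processing notes, and the sources used here do not tell whether another normalization followed. Array medians were nearly equal, so the intensities were used as deposited and log2 was taken.

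Of 22690 probe sets, 64 controls, 691 with several genes and 1555 with none in the platform annotation were left out, leaving 20380 for 12393 genes. After the filter 11739 remained, and the brightest probe set on average stood for a gene. Symbols were looked up by Entrez identifier in the RefSeq table of GRCm38.p6, where 29 identifiers had no match. The test was limma 3.58.1 in R 4.3.3, with 1 mean per group over all 12 arrays, moderated variances that follow mean intensity (degrees of freedom 6 residual, 5.87 prior), two-sided contrasts and Benjamini-Hochberg adjustment over 7722 genes. There were 13 comparisons and 6 further pairs of groups. The fit was tested on simulated data. The 2 arrays per group limit the precision.

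The 6 genes and all lists were chosen with earlier results of these data known. Named genes are the 6 genes with every probe set, up to 4 genes per list and comparison of smallest p, the 3 genes of highest Pearson r with each of the 6, and Myf5 as the driver of the label. Hgf, Xist and the single markers named below the median were chosen after their values were seen, as were values of Cxcl12, Meox2, Myf5 and Rgs16 in comparisons where the rule does not name them. Alternatives were the filter, quantile and median normalization, an added 50 units, the handling of probe sets, the variance prior, a replicate block and leaving out each array. The omission of the E10.5 pair low in Xist was chosen after seeing the data.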

Additional observations from a re-analysis of the deposited data

Results flagged for a closer look

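The change of Lbx1 from E9.5 to E11.5 differed between head and trunk, by a test of the difference itself. Head changed by 4.67 and trunk by −0.58 on the log2 scale, a difference of 5.24 ± 0.88 (adjusted p = 0.0120, limma). That call depended on single arrays. It was lost without the second head array of E11.5 (5.09) and without the first trunk array of E9.5 (4.65). Both head arrays of E11.5 were above both of E9.5, while the trunk arrays of the same stages overlapped. The second Lbx1 probe set, below the median on all 12 arrays, gave 1.80 ± 0.83 for the same difference and was not called (adjusted p = 0.609), nor was its head change (2.29, adjusted p = 0.0778). With 50 units added before log2, which bears on the 2 head arrays of E9.5 far below the median, the difference was 3.18 (adjusted p = 0.00274) and the head change 2.80.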

How the results depend on the processing

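Of the comparisons of the 6 genes under alternatives listed at the outset, other than leaving out single arrays, 721 kept direction and side of the threshold, 20 lost the call, 5 gained it and 8 changed sign. With single arrays left out these counts were 851, 55, 9 and 21. Under the added omission of the E10.5 pair low in Xist 68 were kept, 8 calls were lost and 2 values changed sign. Most comparisons were not called with all arrays, so most of those kept are values that stayed uncalled. Of the calls themselves, more were lost than kept without that pair. The region differences of Pax3 and Cxcr4 over the 3 stages, of Pax3 at E9.5, of Cxcr4 at E11.5 and the head change of Lbx1 from E9.5 to E11.5 stayed called without any single array. Every other call of the 6 genes in the main comparisons was lost on leaving out some single array. Causes of the other changes were not tested. Only 2 arrays per group and, for Pax7, Lbx1 and Met, signals near or below the array median limit the precision.

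Without the filter, calls were lost for Lbx1 at E9.5 (−2.49, adjusted p = 0.0504), Pax3 at E10.5 (−1.33, 0.0634), Cxcr4 at E10.5 (0.96, 0.0816), Lbx1 at E11.5 (2.75, 0.0626), and Cxcr4 in head from E10.5 to E11.5 (1.31, 0.0521) and from E9.5 to E11.5 (1.05, 0.0516). Without the intensity trend, Lbx1 at E9.5 (−2.49, 0.0645), Pax3 at E10.5 (−1.33, 0.0826), Cxcr4 at E10.5 (0.96, 0.0664), Lbx1 at E11.5 (2.75, 0.0905) and Lbx1 in head from E9.5 to E10.5 (3.41, 0.0664) were lost. With every probe set tested, Pax3 (−1.33, 0.0588) and Cxcr4 (0.96, 0.0615) at E10.5 and Lbx1 at E11.5 (2.75, 0.0682) were lost. Adding 50 units before log2 lost Lbx1 at E9.5 (−1.09, 0.0618) and gained Lbx1 over the 3 stages (0.62, 0.0408) and Pax7 in head from E9.5 to E11.5 (1.32, 0.0487). Averaging probe sets lost Pax3 at E10.5 (−1.15, 0.0612) and gained the trunk changes from E9.5 to E11.5 of Pax3 (−1.22, 0.0221) and Gab1 (0.59, 0.0423). It turned the sign of Pax3 in head from E10.5 to E11.5 (−0.50) and of Gab1 at E11.5 (−0.00643) and in head from E10.5 to E11.5 (0.00335). Leaving out probe sets with _s, _x or _a lost Cxcr4 at E10.5 (0.96, 0.0539) and gained the Gab1 trunk change (0.61, 0.0475). It turned Gab1 at E10.5 (−0.0779), at E11.5 (−0.0340), in head from E9.5 to E10.5 (−0.10) and from E10.5 to E11.5 (0.10), and its head minus trunk change from E10.5 to E11.5 (0.0439).

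The labels do not say what a replicate number marks. Over all genes 2 of 15 correlations of same-numbered deviations exceeded 0.1 (−0.30 to 0.17), so a pairing across groups was not taken. Both first replicates of E10.5 were low in Xist, and whether they share a litter or pool was not tested. With the replicate block, Pax3 at E10.5 (−1.33, adjusted p = 0.0600), Cxcr4 at E10.5 (0.96, 0.0573) and Lbx1 at E11.5 (2.75, 0.0538) missed the threshold, and the genes called in head from E10.5 to E11.5 numbered 49 against 76.

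Without the E10.5 pair low in Xist, calls were lost for Lbx1 at E9.5 (−2.49, 0.0807) and E11.5 (2.75, 0.104), for Pax3 (−1.82, 0.232), Met (−2.77, 0.301) and Cxcr4 (0.95, 0.532) at E10.5, for Lbx1 in head from E9.5 to E10.5 (3.12, 0.324), and for Cxcr4 in head from E10.5 to E11.5 (1.28, 0.335) and from E9.5 to E11.5 (1.05, 0.0675). Among values not called, the region difference at E10.5 was 0.66 for Lbx1, −1.19 for Pax7 and 0.36 for Gab1. The change from E10.5 to E11.5 in head was 1.55 for Lbx1, 2.57 for Met, 1.62 for Pax7 and 0.41 for Pax3, and that of Met in trunk was −1.38. Gab1 turned sign in head from E9.5 to E10.5 (−0.0251) and from E10.5 to E11.5 (0.0495).

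With single arrays left out, the region difference over the 3 stages ranged from −0.84 to −0.25 for Pax7, 0.15 to 0.86 for Lbx1 and −0.89 to −0.40 for Met, with no call. It ranged at E9.5 from −1.49 to 0.26 for Pax7, −3.56 to −1.43 for Lbx1 and 0.72 to 0.96 for Cxcr4. At E10.5 it ranged from −1.62 to −1.04 for Pax3, −2.83 to −1.87 for Met and 0.92 to 0.99 for Cxcr4. At E11.5 it ranged from −0.49 to 0.59 for Pax7, 2.39 to 3.11 for Lbx1 and −0.18 to 0.22 for Gab1. Met ranged from −1.08 to −0.47 at E9.5 and 0.45 to 1.92 at E11.5. In head from E9.5 to E10.5 the ranges were −0.18 to 0.96 for Pax3, −0.29 to 0.80 for Pax7, 2.35 to 4.47 for Lbx1 and −0.0251 to 0.27 for Gab1, and from E10.5 to E11.5 −0.25 to 0.0495 for Gab1 and 1.24 to 1.37 for Cxcr4. From E9.5 to E11.5 they were 1.55 to 2.64 for Pax7, −0.11 to 0.15 for Gab1 and 0.93 to 1.17 for Cxcr4. In trunk they were −0.15 to 1.60 for Pax7 and −0.93 to 0.25 for Lbx1 from E9.5 to E10.5, and −0.60 to 0.13 for Lbx1 from E10.5 to E11.5. From E9.5 to E11.5 in trunk they were −1.10 to −0.78 for Pax3, 0.56 to 2.31 for Pax7, −1.17 to 0.0158 for Lbx1, −1.39 to 0.0770 for Met and −0.22 to 0.54 for Cxcr4. For head change minus trunk change they were −1.34 to 0.41 for Pax7 and 2.69 to 4.81 for Lbx1 from E9.5 to E10.5, and 0.98 to 2.12 for Pax3, −0.21 to 1.54 for Pax7 and 4.18 to 6.31 for Lbx1 from E9.5 to E11.5.

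Counts of all genes called, and so the shares given beside the counts of the 6 genes, depended on single arrays. For the region difference they ranged from 534 to 909 over the 3 stages (808 with all arrays), 240 to 455 at E9.5 (457), 51 to 492 at E10.5 (349) and 57 to 172 at E11.5 (160). In head they ranged from 2 to 136 from E9.5 to E10.5 (74), 6 to 165 from E10.5 to E11.5 (76) and 172 to 393 from E9.5 to E11.5 (369). In trunk they ranged from 105 to 574 (556), 0 to 5 (2) and 432 to 1082 (1038) for the same intervals. For head change minus trunk change they ranged from 7 to 89 (30), 0 to 17 (0) and 57 to 120 (114). Without the pair low in Xist the counts were 447, 357, 34 and 113 for the region differences, 0, 4 and 279 in head, 94, 0 and 861 in trunk, and 0, 0 and 63 for head change minus trunk change.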
